A study of Arabidopsis thaliana with 25 samples.

Results

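Cycloheximide (CHX), which stops ribosomes from elongating new proteins, was added to dexamethasone (DEX) in roots of an Arabidopsis thaliana line that carries a PEAR1 fusion with the ligand-binding domain of the glucocorticoid receptor (GR). The comparison takes the 4 arrays labelled DEX+CHX against the 3 labelled DEX in that line, 7 of the 25 arrays of the study, chosen by their labels alone. All 7 came from Col-0 seedlings 4 days old with the construct pRPS5A::PEAR1-GR, treated for 2 h and run in the same arraying batch. Every plant of both groups therefore carried the fusion and received DEX, and CHX was the only labelled difference. The study also holds the PEAR1-GR line in the solvent DMSO for 1 h (n = 3) and in DMSO+CHX for 2 h (n = 3, another arraying batch), and the same treatments of a pRPS5A::PEAR2-GR line with 3 arrays each. The sources used here give no dose, and a line without a GR fusion was not analysed here. The RPS5A promoter is active mainly in dividing cells, so the fusion is not limited to the cells that express PEAR1. The labels name the tissue root or root tips.

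PEAR1 is a DOF-type transcription factor of the early phloem, and a GR fusion stays in the cytoplasm until a glucocorticoid such as DEX lets it into the nucleus. CHX is paired with DEX so that transcripts can respond to the fusion without proteins made afterwards. Blocking translation also changes transcripts by itself: messages held down by short-lived repressors or degraded during translation can accumulate, a behaviour first described for early auxin and stress genes and called superinduction, while messages that need freshly made activators can decline.

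The values are RMA log2 intensities, deposited by the authors, in 38408 rows, of which 16746 name 1 gene. These cover 16554 genes, 1804 with a symbol and 14750 known here by their locus only, so functional classes rest on the minority with a symbol. The level of a row depends on its probes, so levels are compared between arrays and not between genes. A mean of 2.3 or lower is read as near the floor of the arrays, and a rise from or a fall to such a mean is given as "at least". Correlations across rows were 0.9863 to 0.9883 within DEX+CHX, 0.9743 to 0.9765 within DEX, and 0.8829 to 0.8992 between the groups. On the 7 arrays, 80.26% of the variance lay on principal component 1. The labels do not say whether replicates were grown separately, so the p-values reflect only how far these arrays differ among themselves, which may be technical variation, and 3 and 4 arrays limit the precision. Less RNA per cell and fewer cells of a type cannot be told apart in whole roots.

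Adding CHX changed close to every second row. With a limma model over all 25 arrays and Benjamini-Hochberg adjustment over all rows, 6013 rows were higher (15.7%) and 12909 lower (33.6%) at an adjusted p under 0.05, together 49.3%. Higher rows made up 31.8% of the calls. That split depends on the scale: it was 45.6% after quantile normalization once more (8667 higher, 10324 lower) and 52.1% after shifting the arrays to the same median (9529 higher, 8767 lower). The deposited arrays had medians of 4.421 to 4.474 with DEX and 4.148 to 4.18 with DEX+CHX. The median change over the genes was -0.09 as deposited and 0.20 after the shift to equal medians, and changes below are on the deposited scale.

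Among the 16554 genes, taken at 1 row each, 3345 rose (20.2%) and 4168 fell (25.2%). At a change of at least 2-fold as well, 1825 rose (11.0%) and 1035 fell (6.25%). These shares depend on the scale as well: after the shift to equal medians 5330 genes rose and 2376 fell, 2395 and 472 of them 2-fold, and after quantile normalization once more 4888 rose and 3244 fell. Among rows that name 1 gene the rises were the larger changes. Of the rows that name 1 gene, 883 rose and 59 fell by at least 4-fold, 263 rose and 3 fell by at least 16-fold, and 67 rose and 0 fell by at least 64-fold. Over all rows falls of at least 4-fold were the more frequent, 1931 against 1598 rises, and rises were so from 8-fold on, 853 against 603. Rows that name no single gene behaved otherwise, with 6.98% risen and 24.9% fallen 2-fold, and no gene can be given for them here.

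**Figure D1:**
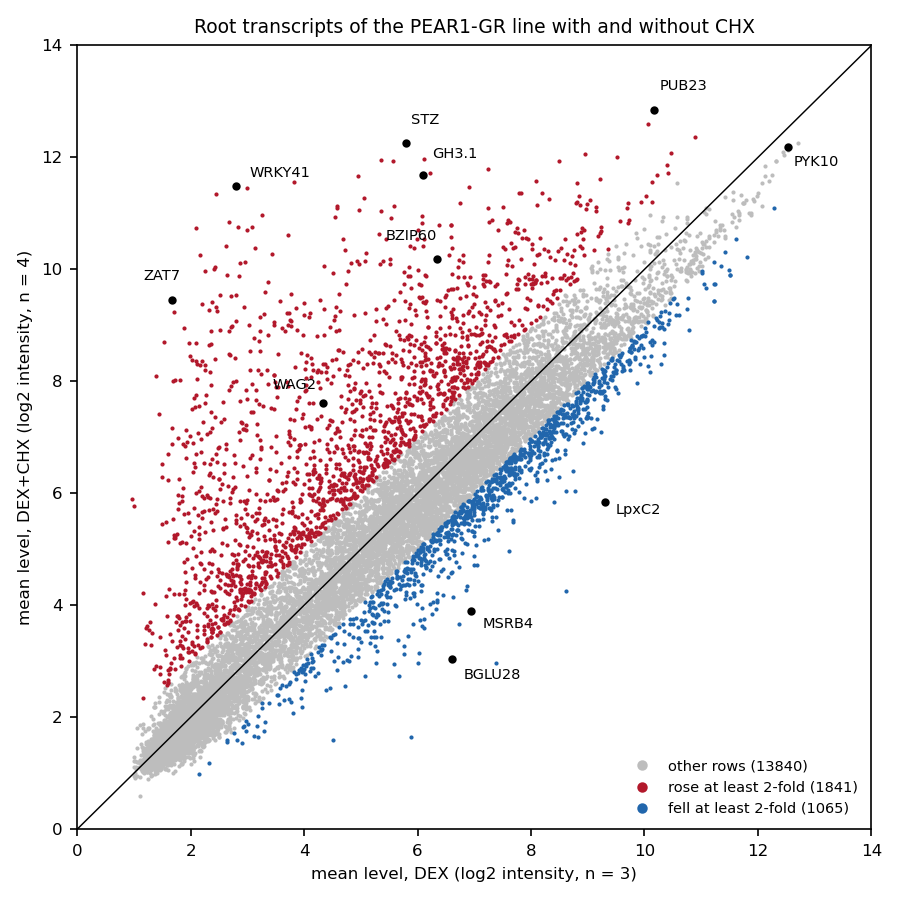
Mean level of each row that names 1 gene in the 3 DEX arrays (x axis) and the 4 DEX+CHX arrays (y axis) of the PEAR1-GR line, log2 intensity, with the line of equal levels. Red points rose and blue points fell at least 2-fold at an adjusted p under 0.05, and the red points reach much further from the line, with 67 rises and 0 falls of at least 64-fold.

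The direction of change went with the level in the DEX arrays. Of 2640 genes at 2.3 to 4 with DEX, 20.0% rose and 1.59% fell 2-fold. Of 1589 genes at 8 to 10, 6.17% rose and 20.2% fell, and the median change there was -0.51. The 1825 risers had a median level of 4.58 with DEX and 7.16 with DEX+CHX, and the 1035 fallers went from 7.32 to 5.95. The 262 genes with rises of at least 16-fold came from a median of 3.04, and 63 of them (24.0%) stood near the floor with DEX. Their median gene length was 1433 bp, against 1913 bp over all genes and 1956 bp over the risers. Part of the link with level is built in, because the DEX arrays enter both the level and the change. The floor also leaves genes of low level little room to fall. Of 5029 genes at 2.3 or lower with DEX, 4.24% rose and 1 gene fell 2-fold.

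**Figure D2:**
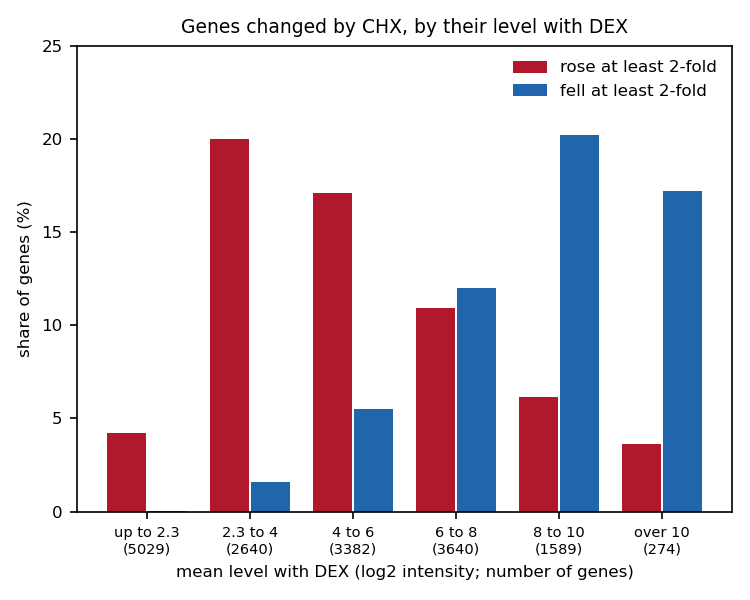
Share of genes (y axis, percent) that rose (red) or fell (blue) at least 2-fold with CHX, by their mean level in the 3 DEX arrays (x axis, log2 intensity; the number of genes stands under each bin). Rises peak at 20.0% between 2.3 and 4 and falls at 20.2% between 8 and 10.

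A list named early touch and wound genes pooled the WRKY and calmodulin-like genes described below with STZ and ZAT7, 15 genes in all. The WRKY and calmodulin-like members are counted again by family below, and a touch or wound response was not tested. Of the 15 genes 14 rose, 11 of them 2-fold, and none fell, with a median of 3.67. Over all genes 20.2% rose and 11.0% rose 2-fold. WRKY41, a WRKY-type factor of defence, stood at 3.05, 2.67 and 2.66 with DEX and at 11.41, 11.67, 11.52 and 11.38 with DEX+CHX. The groups were far apart, and the change was 8.70 ± 0.17 (log2, SE; 416-fold, adjusted p = 1.62e-18). STZ (ZAT10), a zinc finger repressor induced by salt, cold and wounding, went from 5.77, 6.13 and 5.47 to 12.34, 12.27, 12.15 and 12.24, a rise of 6.46 ± 0.19 (adjusted p = 4.06e-16). ZAT7, a related repressor, rose by at least 7.80 ± 0.14 from a mean of 1.67 near the floor. The row of AT3G46080 rose by 7.74 ± 0.16, from 3.79 to 3.88 with DEX to 11.48 to 11.62 with DEX+CHX.

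Of the 7 WRKY genes with a row, 7 rose and 5 rose 2-fold, with a median change of 1.83. Over all genes 20.2% rose, 11.0% rose 2-fold and the median was -0.09. WRKY22, which acts downstream of immune receptor kinases, rose by 4.21 ± 0.13 from 6.42 to 6.71 up to 10.75 to 10.82. WRKY6, a factor of senescence and phosphate responses, was already at 10.82 to 10.99 and rose by 1.46 ± 0.11. BHLH92, an osmotic stress-induced factor, rose by at least 7.19 ± 0.27 from a mean of 2.19. Of the 9 bHLH genes 5 rose, 3 of them 2-fold, and none fell 2-fold, and of the 18 bZIP genes 9 rose and 3 fell. Among the bZIP genes bZIP44 rose by 1.71 ± 0.15 and bZIP58 fell by 1.45. DREB2C, a heat and drought factor of the AP2/ERF family, rose by 1.89 ± 0.24. Of the 4 genes on the AP2/ERF list 3 rose, and TINY2 did not pass (0.02 ± 0.27). TINY, a gene of that family outside the list and picked after its values were seen, fell by 1.32 ± 0.24 to a mean of 6.68.

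Calcium sensor genes moved alike. Calmodulin-like proteins bind calcium and pass its signal to target proteins, and 5 of 6 such genes rose, 4 of them 2-fold, with a median of 4.03. CML37 stood at 2.46, 2.65 and 3.3 with DEX and at 9.34, 9.10, 8.96 and 8.89 with DEX+CHX, so no value of one group came near the other (change 6.27 ± 0.25, adjusted p = 3.47e-14). CML38 rose by 5.96 ± 0.18 and CML23 by 4.39 ± 0.18, while CML43 changed by 0.50 ± 0.23 and did not pass (adjusted p = 0.0738). The IQD proteins, which bind calmodulin at microtubules, were divided: 6 of 17 rose and 7 fell, beside 20.2% and 25.2% of all genes. Their median of -0.10 turned to 0.17 after quantile normalization once more and 0.19 after the shift to equal medians. IQD22 rose by 3.95 ± 0.13, and IQD20 fell by 1.07.

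The glutamate receptor-like channels, which carry calcium and wound signals, were divided too. Of 10 such genes 4 rose and 3 fell, beside 20.2% and 25.2% of all genes. GLR2.8 went from 2.56, 3.11 and 2.68 to 8.27, 8.52, 8.51 and 8.33 (change 5.63 ± 0.24), and its chromosomal neighbours GLR2.9 and GLR2.7 rose by 4.08 ± 0.38 and at least 1.56 ± 0.27. GLR3.5 fell from 7.96, 7.38 and 7.68 to 5.49, 5.20, 5.63 and 5.62 (change -2.19 ± 0.14, adjusted p = 4.52e-11). Close copies such as the GLR2 genes can share probe sequence, so their rows are uncertain as separate measurements.

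Most ubiquitin ligases of the U-box type rose. They mark proteins for the proteasome, and PUB22, PUB23 and PUB24 are known to dampen immune signalling together. Of 10 such genes 8 rose, all 8 at least 2-fold, with a median of 2.59. Over all genes 20.2% rose and 11.0% rose 2-fold. PUB24 went from 5.91, 6.03 and 6.09 to 10.78, 10.92, 10.67 and 10.48 (change 4.70 ± 0.19, adjusted p = 2.86e-14). PUB23 was high already, at 10.04 to 10.31, and reached 12.77 to 12.88 (change 2.67 ± 0.08), and PUB22 rose by 2.29 ± 0.10. PUB43 and PUB15, at changes of 0.14 ± 0.14 and -0.02 ± 0.12, did not pass. ATL5, a RING-type ligase, rose by 3.51 ± 0.16.

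Other steps of protein turnover held members in both directions, beside 20.2% risen and 25.2% fallen over all genes. Of 15 ubiquitin-conjugating enzymes, which hand ubiquitin to the ligases, 2 rose and 8 fell, with a median of -0.53 (-0.24 after the shift to equal medians). RPN12a, the main copy of a proteasome lid subunit, fell by 0.77 from 9.62 to 8.85, whereas the row of its paralog RPN12b rose by 4.25 ± 0.27 from 2.24, 2.88 and 2.74 to 6.89, 7.04, 6.87 and 6.69. ESCRT proteins sort ubiquitinated membrane proteins into endosomes. Of 13 ESCRT genes 6 rose, 5 of them 2-fold (3 to 5 with an array left out), and 1 fell, with a median of 0.11. Over all genes 11.0% rose 2-fold, and in the PEAR2-GR line 2 of the 13 did. VPS2.1 rose by 1.58 ± 0.10 and VPS60.1 by 1.41 ± 0.15.

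**Figure D3:**
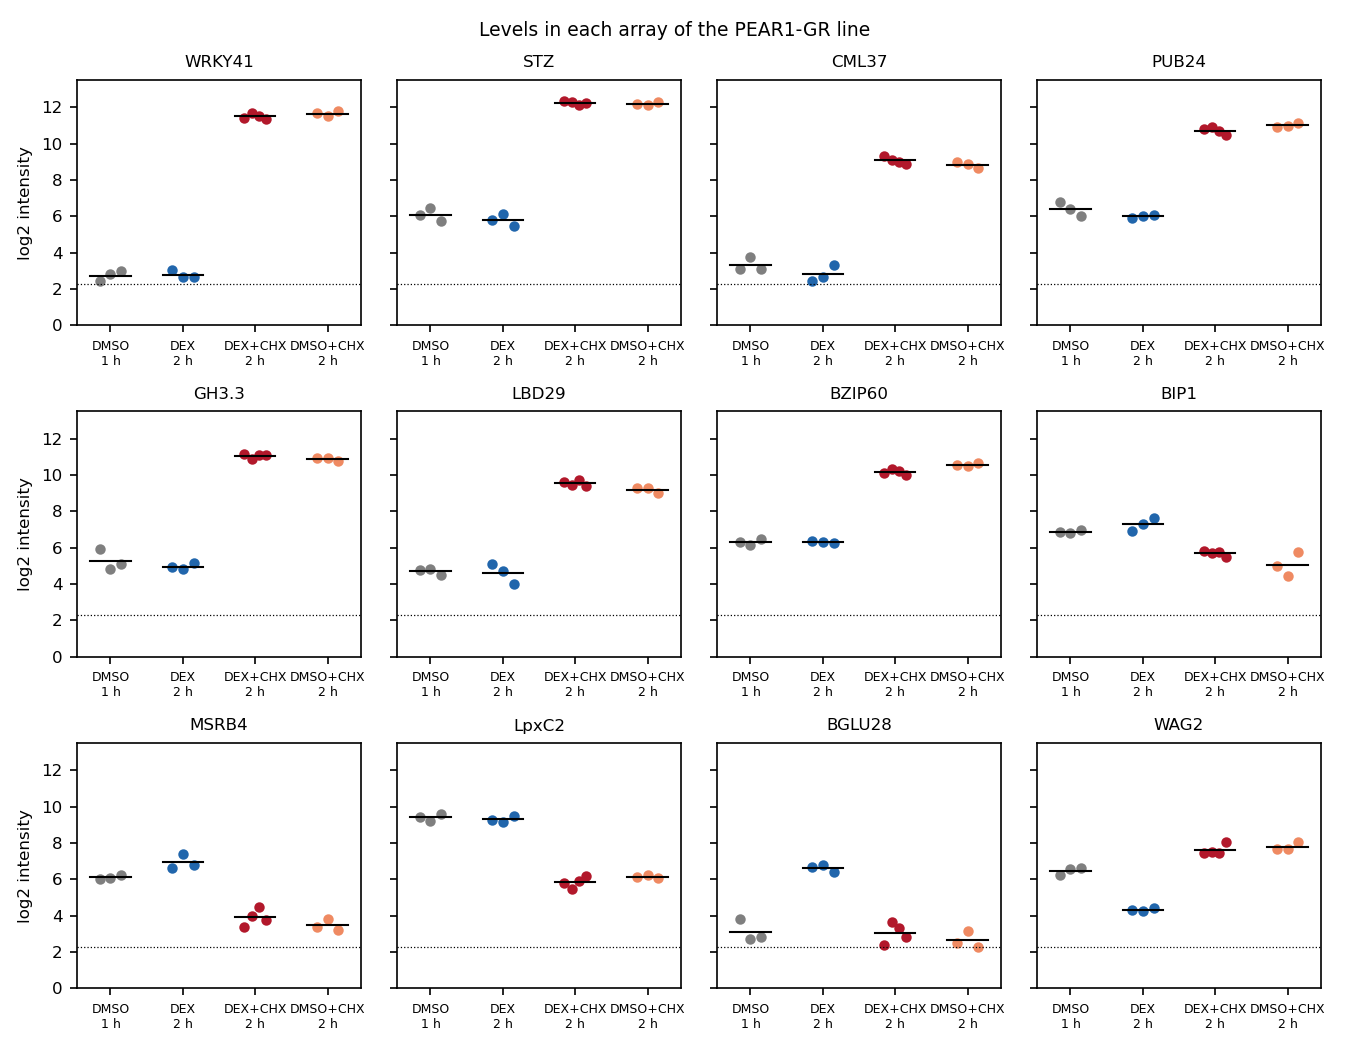
Level (y axis, log2 intensity) of 12 genes in each array of the PEAR1-GR line under DMSO for 1 h and DEX, DEX+CHX and DMSO+CHX for 2 h (3, 3, 4 and 3 points). Bars are means and the dotted line is the limit of 2.3 read as the floor; WRKY41, STZ, CML37, PUB24, GH3.3, LBD29, BZIP60 and WAG2 lie higher, and BIP1, MSRB4, LpxC2 and BGLU28 lower, in all 4 DEX+CHX arrays than in all 3 DEX arrays.

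Early auxin genes rose, again in part. GH3 enzymes inactivate auxin by joining it to amino acids, and 4 of 6 rose, beside 20.2% of all genes, with a median of 1.19. GH3.3 went from 4.93, 4.81 and 5.16 to 11.17, 10.87, 11.09 and 11.10 (change 6.09 ± 0.28, adjusted p = 3.11e-13) and GH3.1 from 5.90 to 6.21 up to 11.64 to 11.74 (change 5.59 ± 0.11). WES1 (GH3.5) rose by 1.88 ± 0.18. GH3.9 and GH3.4 stayed near the floor in both groups.

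The Aux/IAA proteins are short-lived repressors of auxin response, and 4 of 8 rose, each at least 2-fold, while none fell. Over all genes 20.2% rose and 11.0% rose 2-fold. IAA29 went from 2.38, 2.98 and 2.70 to 5.92, 5.77, 5.93 and 5.72 (change 3.15 ± 0.22), and IAA30 rose by at least 3.04 ± 0.27. LBD16 and LBD29, which start lateral roots downstream of auxin response factors, both rose. LBD29 went from 5.11, 4.72 and 4.01 to 9.64, 9.43, 9.75 and 9.39 (change 4.94 ± 0.20) and LBD16 from a mean of 5.23 to one of 8.83 (change 3.60 ± 0.17). The auxin synthesis genes of the YUC family had a median change of -0.23 over 4 genes (their 4 mean levels lay between 1.83 and 4.95 with DEX).

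WAG2, a kinase that acts on auxin efflux carriers, was singled out after its values were seen. It stood at 4.33, 4.24 and 4.44 with DEX and at 7.47, 7.49, 7.45 and 8.07 with DEX+CHX, a rise of 3.28 ± 0.22 (adjusted p = 1.83e-10). Its mean was 6.46 in DMSO after 1 h and 7.79 in DMSO+CHX, so the DEX arrays were the low ones. The DMSO arrays differ from these in time, and DMSO+CHX in batch, and neither entered the test.

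Small signalling peptides of the CLE family rose in 10 of 17 cases, with 6 past 2-fold and a median of 0.62, beside the 20.2% of all genes that rose. The 2 members called lower were CLE27, near the floor in both groups, and CLE1 (-0.91), which lost its call without DEX replicate 1 (-0.97) or 2 (-0.74) or DEX+CHX replicate 1 (-0.93), 2 (-0.86) or 4 (-0.80), and neither was called after the shift to equal medians. CLE14, known to shorten the root meristem when supplied, went from 6.51, 5.46 and 6.12 to 9.64, 9.83, 9.80 and 9.67 (change 3.70 ± 0.15). CLE41 and CLE44 encode the peptide by which phloem keeps neighbouring procambium undifferentiated. CLE41 rose from 3.52, 4.03 and 4.05 to 6.43, 6.63, 6.43 and 6.06 (change 2.52 ± 0.18) and CLE44 by 1.73 ± 0.20. CLE25, a phloem peptide, rose by 1.47 ± 0.16.

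Of 18 RALF peptides, which signal through receptor kinases at the wall, 3 rose and 3 fell, close to the shares over all genes (20.2% and 25.2%). RALFL33 rose by 2.00 ± 0.10 and RALFL32 fell from 6.21 to 6.35 down to 3.98 to 4.12 (change -2.22 ± 0.16). IDL4, related to the abscission peptide IDA, rose by 3.59 ± 0.20, and RTFL7, of a family that limits polar cell growth, by 3.15 ± 0.32. Among 85 defensins and defensin-like peptides 2 rose and 3 fell 2-fold, beside 11.0% and 6.25% of all genes. Of these peptides 67 stood near the floor in both groups. LCR68 fell by 1.41 and PDF2.5 by 1.29.

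Cell wall families had risers and fallers side by side. Of 23 expansins and expansin-like genes 4 rose 2-fold and none fell 2-fold, beside 11.0% and 6.25% of all genes. Their median of -0.19 turned to 0.05 after quantile normalization once more and 0.10 after the shift to equal medians. EXLA3 rose by at least 6.31 ± 0.21, to 7.96 to 8.02, and its neighbour EXLA1 by 2.57 ± 0.17. XTH18 and XTH19, root enzymes that cut and rejoin xyloglucan, rose by 2.65 ± 0.17 and 2.26 ± 0.13. XTH21, a root enzyme of the same family, fell from 8.83, 8.94 and 9.07 to 6.83, 6.92, 7.17 and 7.35 (change -1.88 ± 0.11). CSLC04, a main synthase of the xyloglucan backbone, rose by 2.12, while CSLC5 of the same family fell by 1.86.

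Glycosyltransferases and cytochrome P450 enzymes rose and fell in shares close to or below those of all genes, 20.2% and 25.2%. Of 51 family 1 glycosyltransferases 11 rose and 9 fell, with UGT76D1 up by 3.49 ± 0.16 and UGT76B1 down (-1.20). Of 27 cytochrome P450 genes 4 rose and 4 fell (2 to 4 fell with an array left out), the extremes being CYP71B23 (1.76) and CYP718 (-1.25). Of 23 beta-glucosidases 10 rose (7 to 9 with an array left out) and 4 fell, and 6 stood near the floor in both groups. BGLU27 rose by at least 7.07 ± 0.18 from a mean of 1.88 to 8.95, and BGLU31 by 5.24 ± 0.29.

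BGLU28, a beta-glucosidase known for glucosinolate breakdown under sulfur shortage, had the largest fall among genes with a symbol. It stood at 6.67, 6.77 and 6.41 with DEX and at 2.37, 3.65, 3.31 and 2.82 with DEX+CHX, a change of -3.58 ± 0.29 (adjusted p = 2.07e-09). Its mean was 3.12 in DMSO and 2.65 in DMSO+CHX, so the DEX arrays alone were high. The change in the PEAR2-GR line was -4.35.

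Further falls with a symbol included LpxC2, an enzyme of lipid A-like synthesis, which went from 9.28, 9.14 and 9.48 to 5.81, 5.46, 5.88 and 6.20 (change -3.46 ± 0.15, adjusted p = 9.93e-14). LpxC2 has close copies nearby in the genome, so its row may read them as well. The methionine sulfoxide reductases, which repair oxidised methionine, went both ways. Of 7 such genes 3 rose and 4 fell, beside 20.2% and 25.2% of all genes. MSRB4 fell from 6.64, 7.41 and 6.80 to 3.36, 3.97, 4.48 and 3.78 (change -3.05 ± 0.25) and MSRB5 by 2.87, while MSRB8 rose by 4.03 ± 0.29. Members of this family are close copies, and their rows are uncertain as separate measurements. Among rows that name 1 gene the largest falls were in genes known here by locus, AT4G03292 (-4.43 ± 0.25), AT2G41810 (-4.35 ± 0.19) and AT1G78210, which fell by at least 4.24 to a mean of 1.64. Of the 14 largest rises among these rows, 12 were likewise in genes known by locus only, led by AT1G34050 (8.89 ± 0.24), AT5G40000 (at least 8.64 ± 0.35) and AT1G07135 (8.45 ± 0.27).

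**Figure D4:**
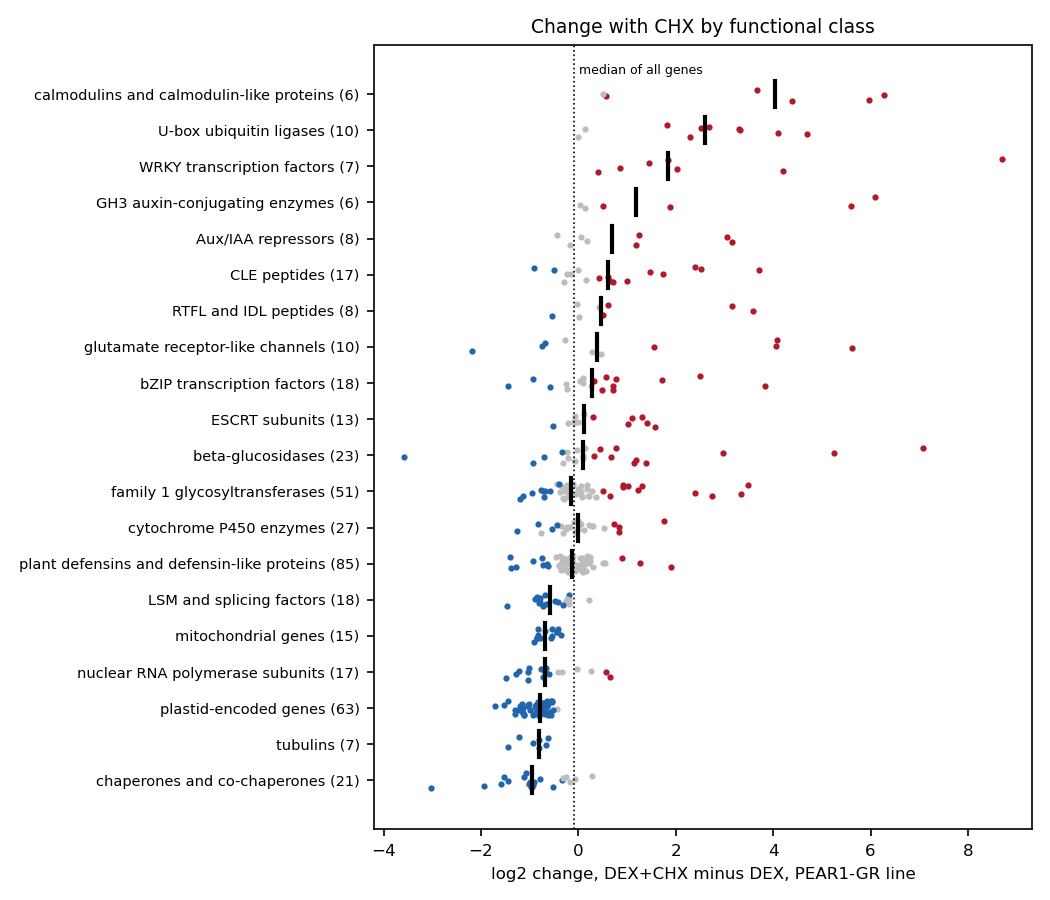
Change with CHX (x axis, log2, DEX+CHX minus DEX) of each gene of 20 classes in the PEAR1-GR line; the number of genes stands beside each name, red and blue points rose or fell at an adjusted p under 0.05, grey points did not pass, and bars are class medians. Calmodulin-like, U-box and WRKY genes lie to the right of the dotted median of all genes (-0.09), and plastid-encoded genes, tubulins and most chaperones to its left.

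Chaperone genes fell, and the genes of the unfolded protein response were divided. BZIP60, a transcription factor of that response, went from 6.40, 6.34 and 6.28 to 10.12, 10.34, 10.23 and 10.03 (change 3.84 ± 0.10, adjusted p = 1.07e-16). BIP1, the luminal Hsp70 of the endoplasmic reticulum, moved the other way, from 6.93, 7.29 and 7.65 to 5.82, 5.73, 5.78 and 5.47 (change -1.59 ± 0.26, adjusted p = 3.53e-05). CRT1b, a calreticulin of the same compartment, fell by 1.00.

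Of 21 chaperone and co-chaperone genes, a list assembled after values had been seen, none rose and 16 fell, 8 of them 2-fold, with a median of -0.95 (-0.66 after the shift to equal medians, where 15 fell, 5 of them 2-fold, and 1 rose). Over all genes 25.2% fell and 6.25% fell 2-fold. Mean levels of the 21 genes with DEX were 1.77 to 10.97, and a part of level in their fall was not tested. Of the 21, 2 stood near the floor in both groups. ATHSP22.0, with means of 1.77 and 1.44, was called lower (-0.33) but not after the shift to equal medians (-0.04). The fall of the class held in several compartments. Cpn60beta4 and Cpn60beta2, chaperonins of the plastid, fell by 3.03 and 1.94, Fes1A and Hop3, co-chaperones of the cytosol, by 1.45 and 1.53, and ATERDJ2A of the endoplasmic reticulum by 0.97. Cpn60beta4 went from 5.80, 6.34 and 5.87 to 2.99, 2.82, 3.43 and 2.67, with no overlap.

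Transcripts made inside the organelles were lower as a group, on a list also assembled after values had been seen. Of 63 genes encoded by the plastid genome none rose and 62 fell, 16 of them 2-fold, with changes from -1.71 to -0.44 and a median of -0.78. The 16 became 12 after quantile normalization once more and 5 after the shift to equal medians. Of 15 mitochondrial genes, each at its row of highest mean, 15 fell, with a median of -0.68 and none past 2-fold. Other rows of 2 of these genes fell further: 3 rows of nad1 by 1.66, 1.63 and 1.44, against 0.42 for the row of highest mean, and 1 row of nad2 by 1.31, against 0.68. Both genes encode subunits of respiratory complex I. Over all genes 25.2% fell, and the median change was -0.51 at levels of 8 to 10 with DEX and -0.65 above 10. Mean levels with DEX were 8.90 to 12.70 for the mitochondrial genes and 5.65 to 12.26 for the plastid genes. The mitochondrial median was thus close to that of all genes at such levels, and a part of level in these falls was not tested. The direction held after the shift to equal medians, with 60 plastid and 10 mitochondrial genes lower and medians of -0.49 and -0.39. ndhC, of the plastid NDH complex, fell from 9.17, 9.31 and 9.32 to 7.50, 7.59, 7.51 and 7.62 (change -1.71 ± 0.11, adjusted p = 7.73e-11), while clpP, a plastid protease subunit, fell by 0.53. matR, the mitochondrial maturase, fell by 0.91 and cox1, a respiratory subunit, by 0.44.

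CHX acts on cytosolic ribosomes and not on those of the organelles, and how the fall came about was not tested. Nuclear genes of green tissue were lower on average as well: over 7 such genes the mean level of an array was 4.09 to 4.12 with DEX and 3.65 to 3.87 with DEX+CHX, without overlap. RCA, the activase of Rubisco, stood at 6.19 to 6.43 and 6.01 to 6.38, a change of -0.20 ± 0.15 that did not pass (adjusted p = 0.309). None of the 7 rose. LHCB4.3 was called lower (-0.61) but not without DEX replicate 2 (-0.40), and PSAN (-0.62) but not without DEX replicate 1 (-0.43). The summed intensity of the 7 genes was 7.38 to 7.57 and 7.12 to 7.39 (log2). Whether a difference in tissue has a part in the fall of plastid transcripts was not tested.

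Many genes of the machinery that makes and processes RNA were lower as well. The polymerase and splicing lists were also assembled after values had been seen, and over all genes 25.2% fell. On a further such list, of 8 Mediator subunits of the transcription machinery, 1 rose and 3 fell, none 2-fold. Mean levels with DEX were 2.63 to 8.79 for the polymerase genes and 4.78 to 10.19 for the splicing genes. The median change over all genes was -0.22 at levels of 6 to 8 and -0.51 at 8 to 10. A part of level in the falls of these lists was not tested. Of 17 subunits of the nuclear RNA polymerases 11 fell, 6 of them 2-fold, with a median of -0.69 (-0.40 after the shift to equal medians, where 10 fell and 1 of them 2-fold). NRPA1, the largest subunit of the polymerase that transcribes ribosomal RNA genes, went from 8.31, 8.26 and 8.34 to 6.68, 6.87, 6.81 and 6.94 (change -1.48 ± 0.10, adjusted p = 8.69e-11). NRPA2 of the same enzyme fell by 1.21 and NRPC2, of the polymerase that makes transfer RNA, by 1.02. The 2 subunits called higher, NRPD2B (0.65) and NRPD7 (0.58), lost the call without DEX+CHX replicate 1 (0.66 and 0.47), without DEX+CHX replicate 4 (0.57 and 0.59) and without DEX replicate 2 (0.29 and 0.43), and NRPD2B also without DEX+CHX replicate 3 (0.65).

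Of 18 LSM and splicing genes none rose and 13 fell, with a median of -0.58 (-0.29 after the shift to equal medians, where 9 fell and 1 rose), and ATU2AF65A, which recognises the 3′ splice site, fell by 1.46. Of 7 mRNA decay genes, 6 of which encode LSM proteins counted above as well, none rose and 5 fell, none 2-fold. EIF4A-2, a helicase that opens messages for translation, fell by 1.17 and ALATS, which charges alanine transfer RNA, by 0.74. Ribosomal protein genes had few rows with a symbol; PGY1, a protein of the large subunit picked after its values were seen, fell by 1.33.

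Tubulin genes, which encode the subunits of microtubules, were lower. All 7 fell, 2 of them 2-fold, with a median of -0.81, and 5 fell after the shift to equal medians. Their mean levels with DEX were 2.03 to 8.61, and a part of level in their fall was not tested. TUB7 went from 7.36, 7.41 and 7.27 to 5.73, 5.72, 5.95 and 6.16 (change -1.45 ± 0.12). TUA6 was near the floor in both groups, so the size of its change has no meaning. ACT11, an actin, and KINESIN-12B, a motor of the cell division plate, both chosen after their values were seen, fell by 1.42 and 1.23. Of 9 NET proteins, which bind actin, 1 rose and 2 fell, beside 20.2% and 25.2% of all genes. NET4B rose by 1.57 ± 0.11 and NET1A fell by 1.37. Tubulin genes are similar in sequence, and their rows may share signal. The TRM proteins, which recruit a phosphatase to microtubules, were mixed, with 8 of 14 risen, 3 fallen (1 to 3 with an array left out) and a median of 0.46. TRM25 (1.84) alone passed 2-fold, and 5 did after the shift to equal medians.

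Further genes among the 60 largest rises with a symbol were picked after their values were seen. GRX480, a glutaredoxin of salicylic acid signalling, went from 3.97, 4.22 and 3.80 to 9.48, 9.43, 9.31 and 9.41 (change 5.41 ± 0.11). OPCL1, an enzyme of jasmonate synthesis, rose by 3.59 ± 0.12, and HEMA2, of haem synthesis in roots, by 3.42 ± 0.13. CCR2, a cinnamoyl-CoA reductase of phenolic metabolism, rose by 3.71 ± 0.17. Outside those 60, NRT2.5, a nitrate transporter of starved plants and the 1 gene of its list with a row, rose by 2.83 ± 0.20.

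Root cell markers were measured to check the label. The root hair expansin EXPA7 stood at 10.05, 9.80 and 9.79 with DEX and at 9.22, 9.70, 9.78 and 9.60 with DEX+CHX, a change of -0.30 ± 0.15 that did not pass (adjusted p = 0.101). EXPA18, of the same cells, fell by 0.88 from 8.59 to 8.79 down to 7.29 to 8.03. JKD, a ground tissue factor, stood at 8.78 and 8.53. Of 5 genes on the xylem and procambium list 2 rose and 2 fell, beside 20.2% and 25.2% of all genes. The 2 risers were CLE41 and CLE44, whose peptide acts from phloem on procambium as described above. Of the 2 that fell, LHW, needed for vascular patterning, fell by 0.89 from 8.04. PHV, a vascular patterning factor of the HD-ZIP type, fell by 0.89 from 5.83. Of 5 phloem markers 3 rose and none fell, with a median of 0.65; CLE25 rose by 1.47 ± 0.16, while OPS and SWEET11, at -0.45 and -0.49, did not pass. The phloem peptide CLE45 (0.65) lost its call without DEX replicate 1 (0.53), DEX replicate 3 (0.59) or DEX+CHX replicate 4 (0.59). BBM, a root meristem factor, rose by 0.83. Root hair genes were thus well detected in both groups, while many markers of single cell types had no named row.

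Chromosomal neighbours that both rose 2-fold numbered 277 of 10311 adjacent pairs with rows, 69 pairs both fell and 98 moved in opposite directions. Of all genes, 11.0% rose and 6.25% fell 2-fold, and an excess of joint changes over these shares was not tested. The joint rises included GLR2.9, GLR2.8 and GLR2.7, BGLU31 and BGLU32, and UGT73B3 and UGT73B2. These are tandem copies, and the sharing of probes among them was not tested.

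The PEAR2-GR line gave the same contrast on other arrays, 3 against 3, although both contrasts use the same estimate of each row's spread. Of the 1841 rows with 1 gene that rose 2-fold in the PEAR1-GR line (11.0%), 1616 rose in the other line too, 87.8% of the first list and 90.3% of the 1789 of the second (10.7%). Of 1065 falls (6.36%) 718 were shared, 67.4% of the first list and 70.3% of the 1022 of the second (6.10%), and 1 row moved in opposite directions. Across the 16746 rows the changes correlated at 0.958, a description across rows, which are not independent. WRKY41 rose by 8.68 there, GH3.3 by 5.58, PUB24 by 4.69, BZIP60 by 3.95 and CML37 by 5.93, and BIP1 stood at -1.58. Plastid genes had a median of -0.73 and mitochondrial genes of -0.38.

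**Figure D5:**
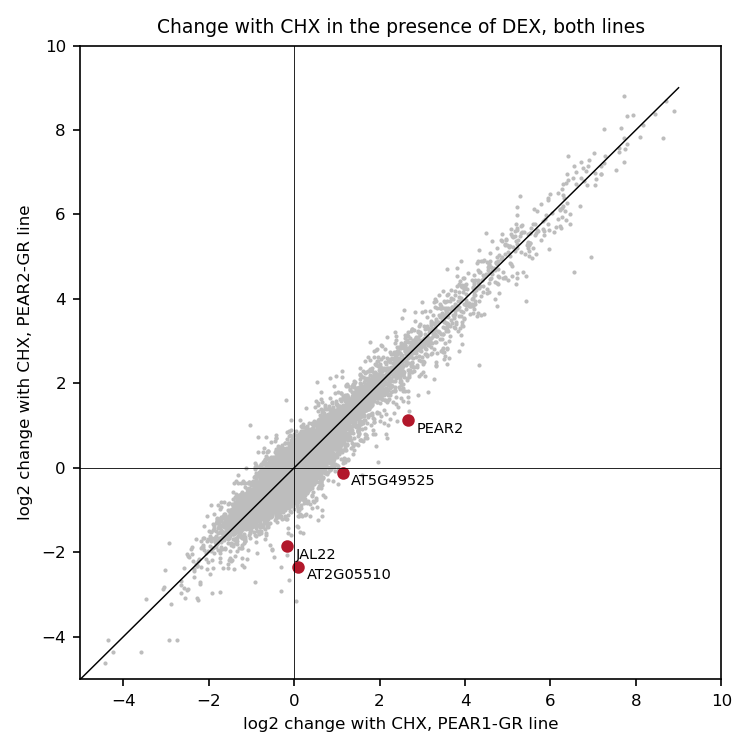
Change with CHX in the presence of DEX (log2) of each row that names 1 gene, in the PEAR1-GR line (x axis) and the PEAR2-GR line (y axis), with the line of equal change. Red points are the 4 genes whose change differed between lines at an adjusted p under 0.05. PEAR2 changed by 2.66 and 1.13, the latter in the line where its row can also read the transgene.

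The difference between lines passed the limma test in 12 of 38408 rows (0.0312%), 5 with the larger value in the PEAR1-GR line (0.0130%) and 7 with the smaller (0.0182%), and 3232 rows had an unadjusted p under 0.05. Of rows with 1 gene 4 passed (0.0239%), all with the larger signed change in the PEAR1-GR line. A larger signed change need not be a stronger response. JAL22 and AT2G05510 fell in the PEAR2-GR line (-1.85 and -2.34) and were not called in the PEAR1-GR line (-0.17 and 0.10). The clearest of the 4 was PEAR2 itself (AT5G02460), a close relative of PEAR1 that acts with it in early phloem. In the PEAR1-GR line it stood at 6.12, 6.33 and 5.91 with DEX and at 8.90, 8.66, 8.78 and 8.79 with DEX+CHX, a rise of 2.66 ± 0.11 (adjusted p = 3.36e-14). In the PEAR2-GR line, where the row can also read the transgene, it went from 10.84 to 11.05 up to 12.06 to 12.10, a rise of 1.13 ± 0.11. The difference was 1.53 ± 0.16 (adjusted p = 0.000233). In the PEAR1-GR line the mean was 6.47 in DMSO and 8.65 in DMSO+CHX. No row names PEAR1, so its level was not analysed here.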

How the data were processed

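Total RNA was labelled and hybridised to 1-colour Affymetrix arrays, per the labels' protocols. The authors deposited log2 intensities made with RMA, per the submitters' processing notes; its version and options were not stated there. Rows were named by the platform annotation, updated through the RefSeq table of TAIR10.1, where 16601 of the 16746 rows with 1 gene matched. A limma model (limma 3.58.1, R 4.3.3) gave each group its own mean over the 25 arrays, with 17 residual degrees of freedom per row, moderated by eBayes. Benjamini-Hochberg adjustment ran over 38408 rows. A call needs an adjusted p under 0.05, and a 2-fold call also a log2 change of 1 or more in size.

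The members and lists were chosen with earlier results of these data known. Of 97 gene lists 30 were added after values were seen, 80 had a member and 57 at least 5. The added lists described here include plastid-encoded, mitochondrial, RNA polymerase, splicing, Mediator, chaperone, ubiquitin-conjugating enzyme, ESCRT, exocyst and SWEET genes. They also include glutamate receptor-like, IQD, methionine sulfoxide reductase, YUC, gibberellin, RTFL and IDL, CSL synthase and NET genes. Members were matched by symbol and 1 row stood for a gene, that with the highest mean. Matching without regard to case, and leaving out symbols of another family, were also settled after values were seen. Named genes are PEAR2, the 14 largest rises and falls whose groups do not overlap, differences between lines, and up to 3 rises and 2 falls per list; other list members, and genes marked so, were picked after their values were seen. No protein or promoter table was used, so motif counts were not run.

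Same-numbered replicates did not deviate together (correlations of 0.012, 0.034 and -0.0091), so the numbers were not used to pair arrays. The fit was tested on simulated data. No detection calls were used, and the limit of 2.3 was chosen after values were seen. Alternatives were other scalings, filters and priors, array weights, a replicate block, fewer arrays and each array left out in turn.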

Additional observations from a re-analysis of the deposited data

Results flagged for a closer look

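Single arrays stood apart from the other 3 of the DEX+CHX group in 10 of the 267 named genes, by the gap to the nearest array as a share of the range. Chance alone marks about 1 in 20 groups. Replicate 4 was low for ZAT7 (9.24, others 9.52 to 9.54) and for bHLH104 (4.52, others 4.68). Replicate 1 was low for LSM3B (5.04, others 5.47 to 5.53) and high for bZIP58 (5.88, others 5.63 to 5.68) and SLY1 (5.77, others 5.60 to 5.63). Replicate 2 was high for HRD (3.07, others 2.48 to 2.49) and YUC4 (2.17, others 1.73 to 1.80) and low for LHCB4.3 (1.60, others 1.82 to 1.86), and the last 2 lie near the floor. Replicate 3 was high for ATL43 (5.18, others 4.46 to 4.58) and UBC30 (8.32, others 8.03 to 8.06).

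The response to CHX differed between the lines in 4 genes by a limma test of the difference itself. AT5G02460 (PEAR2) differed by 1.53 (2.66 in the PEAR1-GR line, 1.13 in the PEAR2-GR line, adjusted p = 0.000233), and the difference passed in each alternative run. In the PEAR2-GR line its row can also read the transgene, so the 2 changes may not measure the same transcript. AT2G05510 differed by 2.43 (0.10 and -2.34, adjusted p = 0.00678), but it was near the floor in both groups of the PEAR1-GR line, so the size is not settled. Its means with DEX and DEX+CHX were 1.84 and 1.93 in the PEAR1-GR line and 4.13 and 1.80 in the PEAR2-GR line.

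AT5G49525 differed by 1.25 (1.14 and -0.11, adjusted p = 0.0206). It did not pass without PEAR1 DEX+CHX replicate 2 (1.19), PEAR1 DEX replicate 1 (1.17), PEAR2 DEX+CHX replicate 1 (1.19), or PEAR2 DEX replicates 2 (1.22) or 3 (1.16). JAL22, a jacalin-type lectin, differed by 1.68 (-0.17 and -1.85, adjusted p = 0.0488). Its means with DEX and DEX+CHX were 5.55 and 5.38 in the PEAR1-GR line and 7.20 and 5.35 in the PEAR2-GR line. It did not pass without any 1 of PEAR1 DEX+CHX replicates 1 (1.74), 2 (1.54) and 3 (1.66), PEAR1 DEX replicates 1 (1.60), 2 (1.76) and 3 (1.67), PEAR2 DEX+CHX replicates 1 (1.52) and 3 (1.74), or PEAR2 DEX replicates 2 (1.59) and 3 (1.61). Neither gene passed with only the arrays of the groups compared (adjusted p = 0.133 for AT5G49525 and 0.144 for JAL22). AT5G49525 also did not pass with an intensity trend and robust prior (0.0706), and JAL22 not with array weights (0.0634), the same 75th percentile (0.0563) or adjustment over named rows (0.0667).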

How the results depend on the processing

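Scaling had the widest effect: shifting arrays to the same median raised the rows higher with CHX in the PEAR1-GR line from 6013 to 9529. Adjusting over named rows alone, which tests fewer rows, gave 3472 higher and 4481 lower, 1903 and 1151 past 2-fold, 3255 and 4508 in the PEAR2-GR line, and 3 and 0 for the difference between lines. With each array left out in turn the PEAR1-GR counts were 5608 to 5886 higher and 12005 to 12273 lower, with 3310 to 3397 and 6121 to 6529 past 2-fold; those of the PEAR2-GR line were 5263 to 5443 and 10921 to 11840. The difference between lines, 5 higher and 7 lower, was unstable: 2 to 19 higher and 1 to 18 lower with an array left out, 19 and 18 of these without PEAR2 DEX replicate 1, 2 and 0 with only the arrays of the groups compared, 9 and 12 with an intensity trend and robust prior, 11 higher without the rows of lowest mean, 8 higher after the median shift, and 6 higher and 2 lower with a replicate block.

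The replicate block gave 5824 higher and 12151 lower in the PEAR1-GR line. The calls of COR47 (0.12 after quantile normalization once more, 0.01 after the median shift) and JKD (0.04 after the median shift) turned sign, by values below the size of the shift. Over the single genes, these 2 included, a call was lost 175 times and gained 9 times over all alternatives, beside the sign changes, 28 of the losses by the median shift. Counts of list members past 2-fold moved by over 1.5 times 83 times, nearly always counts of a few genes. No motif alternative could be run. The number of arrays and the floor limit what small changes can show.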

Other observations

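Transport and secretion genes not described above changed in part. Of 14 SWEET sugar transporters 4 rose and 1 fell, beside 20.2% and 25.2% of all genes, and 6 stood near the floor in both groups. SWEET14 rose by 1.55 ± 0.27, SWEET13 by 1.33 ± 0.17, and SWEET17, a vacuolar fructose transporter, fell by 0.98. Of 9 exocyst subunits, which tether secretory vesicles, 1 rose and 7 fell, with SEC6 down by 1.21. After the shift to equal medians 1 fell. Mean levels of the 9 with DEX were 5.52 to 9.25, and a part of level in their fall was not tested. The gibberellin F-box genes SLY1 and SLY2 changed by -0.97 ± 0.14 and 1.59 ± 0.23.

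Genes of root hairs were lower in replicate 1 of DEX+CHX than in the other 3 arrays of the group. XTH26 stood at 6.08 against 7.49, 7.66 and 7.63, EXPA18 at 7.29 against 8.03, 7.97 and 7.84, and EXPA7 at 9.22 against 9.70, 9.78 and 9.60. The 3 genes were picked after their values were seen, and the pattern was not tested.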
